A study of Homo sapiens with 4 samples.

Results

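The genes described here are NPM1, its family member NPM3, MYC with its partner MAX, and 6 genes whose products work in the nucleolus: NCL, FBL, DKC1, NOP56, NOP58 and POLR1B. They were taken by symbol from the table of read counts, which gave 10 genes of 67062 rows. All 10 were among the 15918 genes with enough reads to be tested. The cells were OCI-AML3, a human line established from acute myeloid leukaemia, with a cytoplasmic mutant of NPM1 (NPM1c+). They were transduced with the retroviral pMSCV-PIG vector, which also carries puromycin resistance and GFP, and GFP-positive cells were sorted. PIG-LONA cells received the vector with the full sequence of the long noncoding RNA LONA, and PIG-EMPTY cells received the vector without an insert. Each group had 2 libraries of poly(A) RNA from independent transductions of this 1 cell line, so all 4 libraries share the mutant NPM1 background.

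NPM1 encodes nucleophosmin, a chaperone of ribosome assembly and of histones that normally concentrates in the nucleolus. In leukaemia with mutant NPM1 the protein gains a nuclear export signal and moves to the cytoplasm. The nucleolus makes ribosomal RNA: RNA polymerase I transcribes the precursor, small nucleolar ribonucleoproteins (snoRNPs) modify it, and assembly factors fold and cut it. MYC, which binds DNA as a dimer with MAX, is a known activator of many genes of this process.

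None of the 10 genes passed the test for a difference between PIG-LONA and PIG-EMPTY, with 0 higher and 0 lower (quasi-likelihood test of edgeR, p adjusted by Benjamini-Hochberg over all tested genes, threshold 0.05). The same test called 6.44% of all tested genes, 2.93% higher and 3.51% lower in PIG-LONA. At an unadjusted p under 0.05 the count was also 0 of the 10, against 18.7% of all tested genes, and DESeq2 and limma-voom called 0 of the 10 as well. The log2 fold changes ran from -0.030 for NPM3 to 0.074 for POLR1B, with 9 above 0 and 1 below, and their median was 0.026. Over all tested genes the median was 0.0011, with 8016 above 0 and 7902 below. The 95% intervals of the 10 differences ran at their outermost from -0.13 to 0.16 on the log2 scale, that is from 0.912-fold to 1.12-fold.

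All levels are relative to the library, so RNA per cell was not measured, and in bulk RNA fewer cells that express a gene and less RNA per cell cannot be told apart. Total counts were 30181550 and 38358442 in the PIG-LONA libraries, against 29819572 and 32350832 in the PIG-EMPTY libraries. The 10 genes together took 0.563% and 0.557% of the counts in PIG-LONA, against 0.548% and 0.552% in PIG-EMPTY. The level of the LONA transcript itself was not analysed here, so the labels stand without a check from it.

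The 10 genes differed far more from each other than between the groups. For a comparison between genes, levels are given as TPM, computed here from the counts and the summed exon length of each gene. That length covers all annotated exons, not only those of the transcripts expressed, so the order and ratios below depend on it. It was 6929 bases for NCL and 3828 bases for NPM1. In CPM, which do not correct for length, NCL (2097 and 2086 in PIG-LONA) was above NPM1 (1813 and 1769). NPM1 had the highest mean over the 4 libraries (1586 TPM), followed by NCL (1012 TPM), MYC (441 TPM) and FBL (355 TPM). NPM3 (244 TPM), NOP58 (243 TPM) and NOP56 (233 TPM) came next, then DKC1 (188 TPM), MAX (73.1 TPM) and POLR1B (58.6 TPM). The means of NPM1 and POLR1B differed 27.1-fold. In this order the ranges of NPM3 and NOP58 over the 4 libraries overlapped, as did those of NOP58 and NOP56, and the ranges of all other neighbours were apart.

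**Figure D1:**
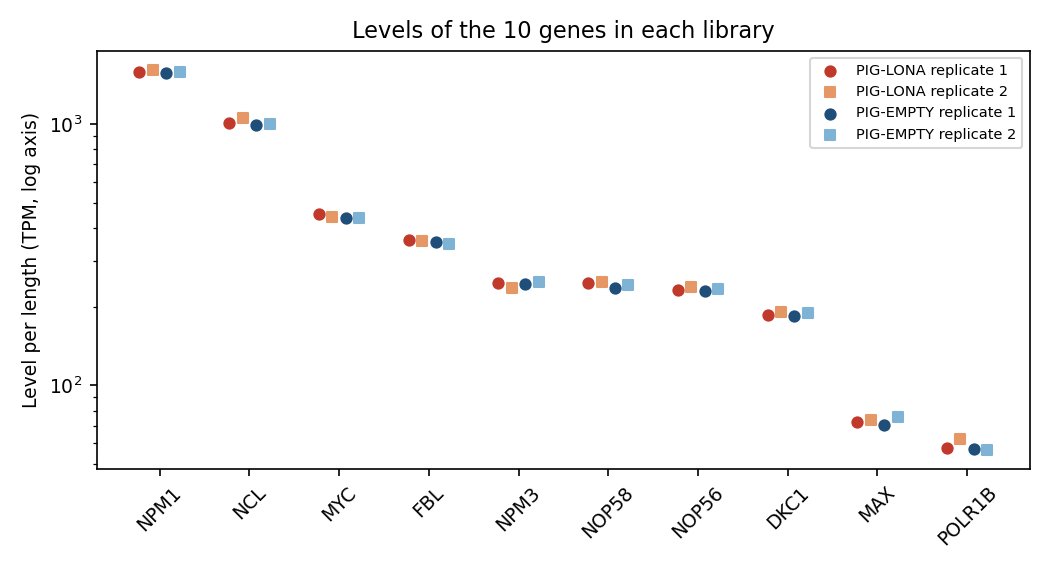
Level per length (TPM, log axis) of each of the 10 genes, ordered by mean, with 1 point for each of the 4 libraries. The libraries of a gene lie close together, between 1566 and 1612 TPM for NPM1 and between 56.8 and 62.6 TPM for POLR1B, while the means of the genes span 27.1-fold.

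NPM1 (ENSG00000181163, chromosome 5, 171387116 to 171411137, plus strand, GRCh38) had 1813 and 1769 CPM in PIG-LONA, against 1767 and 1771 CPM in PIG-EMPTY. CPM are counts relative to the library total after scaling by the TMM factors of edgeR. One PIG-LONA library lay above both PIG-EMPTY libraries and the other between them, so the groups overlapped. The log2 fold change was 0.018 ± 0.032 (SE, n = 2 per group; edgeR adjusted p = 0.834), with a 95% interval from -0.049 to 0.084. The counts are per gene and do not separate the mutant from the normal allele.

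The genome holds many processed copies of NPM1, and reads that match both a copy and NPM1 are uncertain in a table of counts. The table had 49 rows named as NPM1 pseudogenes, of which 23 had at least 1 count, and together they held 6.37% as many counts as NPM1 itself. Most of that was NPM1P27 (chromosome 5, 93682838 to 93683667, minus strand), with 3253 and 4073 counts in PIG-LONA, against 2928 and 3230 counts in PIG-EMPTY. Its log2 fold change was 0.12 ± 0.04 (edgeR adjusted p = 0.107). With all NPM1 pseudogene rows added, NPM1 was at 1932 and 1885 CPM in PIG-LONA, against 1876 and 1881 CPM in PIG-EMPTY, and its log2 fold change was 0.023 ± 0.032 (edgeR adjusted p = 0.779). Adding the copies left NPM1 without a call.

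NPM3 (ENSG00000107833, chromosome 10, 101781325 to 101783413) encodes a nucleolar protein of the same nucleoplasmin family. Its levels were 68.7 and 63.0 CPM in PIG-LONA, against 67.1 and 67.1 CPM in PIG-EMPTY. The PIG-LONA libraries lay on both sides of PIG-EMPTY, and the log2 fold change was -0.030 ± 0.049 (edgeR adjusted p = 0.822), the only one of the 10 below 0. Without PIG-LONA replicate 2 the value was 0.035. Per length, the mean level of NPM1 was 6.49-fold that of NPM3.

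NCL (ENSG00000115053, chromosome 2, 231453531 to 231483641) encodes nucleolin, an abundant RNA-binding protein of ribosome production. It had 2097 and 2086 CPM in PIG-LONA, against 2021 and 2020 CPM in PIG-EMPTY. The replicates of each group lay close together and the groups did not overlap. The difference was small, with a log2 fold change of 0.050 ± 0.031 (a 3.53% higher level; edgeR adjusted p = 0.429) and a 95% interval from -0.015 to 0.12. In 4 of the 10 genes (NCL, NOP56, NOP58 and POLR1B) both PIG-LONA libraries lay above both PIG-EMPTY libraries, and in 0 both lay below. Over all tested genes 48.0% had groups that did not overlap, 23.7% with PIG-LONA higher and 24.4% with PIG-LONA lower. An exact permutation test of 2 against 2 libraries cannot give a p below 0.333.

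**Figure D2:**
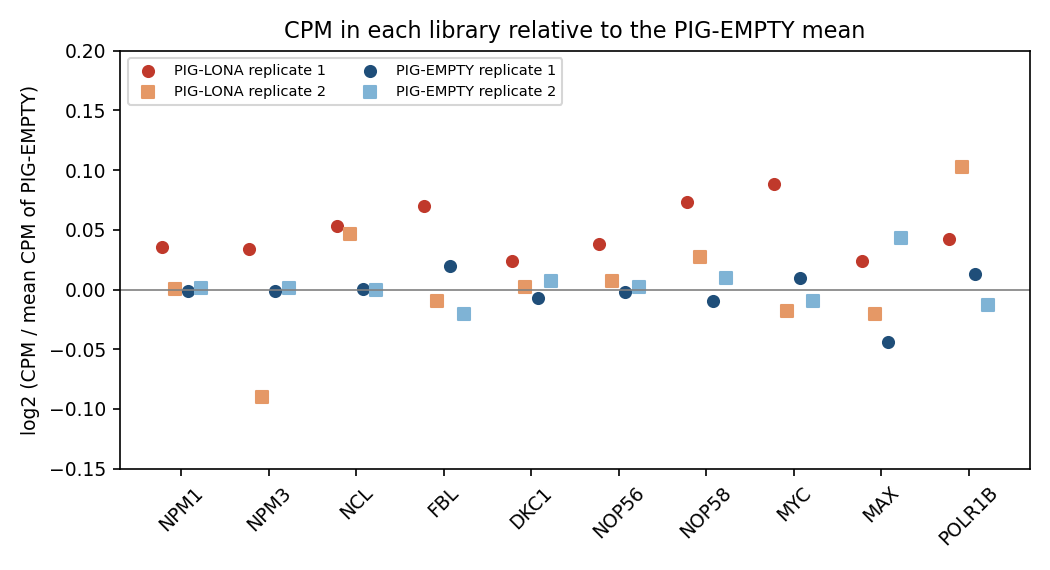
CPM of each gene in each library as log2 of the ratio to the PIG-EMPTY mean, with PIG-LONA points on the left of PIG-EMPTY points. Both PIG-LONA libraries lie above both PIG-EMPTY libraries for NCL, NOP56, NOP58 and POLR1B, and PIG-LONA replicate 1 lies above PIG-LONA replicate 2 for every gene but POLR1B.

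The box C/D snoRNPs guide methylation of ribosomal RNA. FBL (ENSG00000105202, chromosome 19, 39834458 to 39846414) encodes their methyltransferase, fibrillarin. NOP56 (ENSG00000101361, chromosome 20, 2652145 to 2658393) and NOP58 (ENSG00000055044, chromosome 2, 202265716 to 202303666) encode the paired core proteins of the same particle. FBL had 235 and 222 CPM in PIG-LONA, against 227 and 221 CPM in PIG-EMPTY. The groups overlapped, at a log2 fold change of 0.030 ± 0.039 (edgeR adjusted p = 0.752). NOP56 had 376 and 368 CPM in PIG-LONA, against 366 and 367 CPM in PIG-EMPTY. The gap between the groups was narrower than the gap between the PIG-LONA replicates, and the log2 fold change was 0.023 ± 0.035 (edgeR adjusted p = 0.800). NOP58 had 243 and 236 CPM in PIG-LONA, against 230 and 233 CPM in PIG-EMPTY, a log2 fold change of 0.050 ± 0.037 (edgeR adjusted p = 0.517). These 3 genes had estimates between 0.023 and 0.050, and each 95% interval included 0. SNU13, named after its value was seen, is in the list of snoRNP partners described below. It was on the other side of 0, at -0.029 ± 0.038 (edgeR adjusted p = 0.763), and its groups overlapped.

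DKC1 (ENSG00000130826, chromosome X, 154762742 to 154777689) encodes dyskerin, the pseudouridine synthase of the box H/ACA snoRNPs and a part of telomerase. It had 234 and 231 CPM in PIG-LONA, against 229 and 232 CPM in PIG-EMPTY. The groups overlapped, and the distance from the lowest to the highest library was 2.11% of the mean, the smallest of the 10 genes. The log2 fold change was 0.013 ± 0.036 (edgeR adjusted p = 0.906), with a 95% interval from -0.063 to 0.088.

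POLR1B (ENSG00000125630, chromosome 2, 112541915 to 112577150) encodes the second largest subunit of RNA polymerase I. It had 109 and 114 CPM in PIG-LONA, against 107 and 105 CPM in PIG-EMPTY. The groups did not overlap, with a log2 fold change of 0.074 ± 0.042 (a 5.26% higher level; edgeR unadjusted p = 0.0905, adjusted p = 0.363). Its 95% interval ran from -0.013 to 0.16. With all 4 libraries this was the largest estimate of the 10 genes, but without PIG-LONA replicate 2 it was 0.044 and ranked 5, below MYC, NOP58, FBL and NCL.

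MYC (ENSG00000136997, chromosome 8, 127735434 to 127741434) had 407 and 379 CPM in PIG-LONA, against 386 and 381 CPM in PIG-EMPTY. PIG-LONA replicate 1 was the highest library and PIG-LONA replicate 2 the lowest, so the PIG-EMPTY values lay inside the PIG-LONA spread. The log2 fold change was 0.035 ± 0.038 (edgeR adjusted p = 0.688), with a 95% interval from -0.044 to 0.11. This value rested on which PIG-LONA library was used. Without PIG-LONA replicate 2 MYC passed the test, at 0.089 (edgeR adjusted p = 0.0223), and without PIG-LONA replicate 1 it was at -0.017 (edgeR adjusted p = 0.764). In both of these fits the single PIG-LONA library is assumed to vary like the PIG-EMPTY pair. For the 9 genes other than MYC no call appeared when any 1 library was left out.

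MAX (ENSG00000125952, chromosome 14, 65006174 to 65102695), the dimer partner of MYC, had 96.5 and 93.5 CPM in PIG-LONA, against 92.0 and 97.7 CPM in PIG-EMPTY. The PIG-LONA values lay between the PIG-EMPTY values. Its log2 fold change of 0.00055 ± 0.044 was the closest to 0 of the 10 genes (edgeR adjusted p = 0.999), and its sign changed when library totals replaced the TMM scaling. The ratio of MYC to MAX in TPM was 6.24 and 5.98 in PIG-LONA, against 6.19 and 5.75 in PIG-EMPTY, so the ratios of the groups overlapped.

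**Figure D3:**
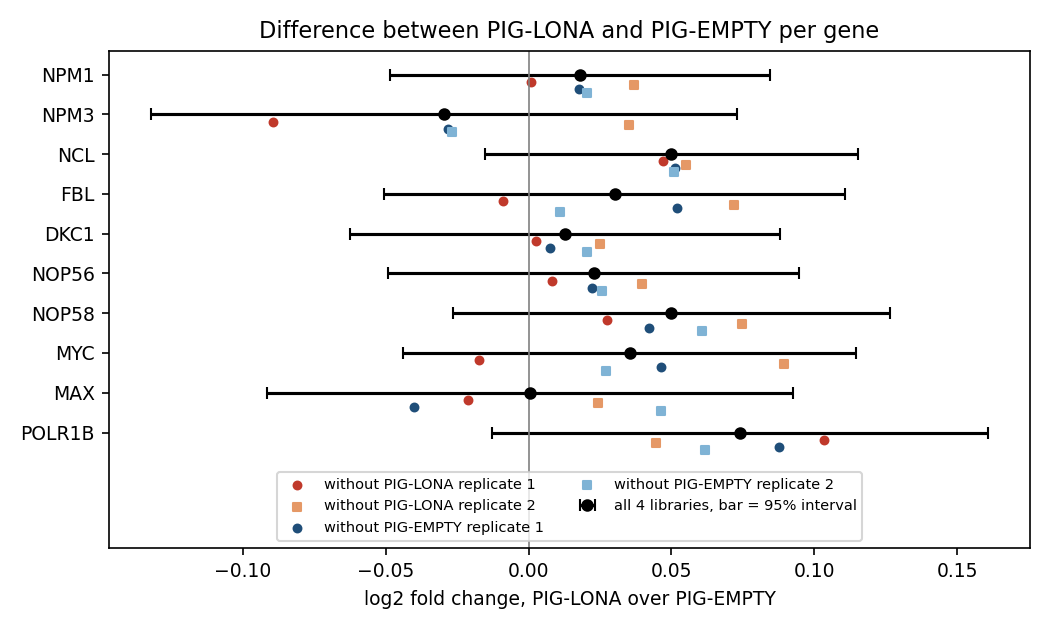
Log2 fold change of PIG-LONA over PIG-EMPTY for each gene, with all 4 libraries (black, bar for the 95% interval) and with each library left out in turn (coloured points). Every 95% interval includes 0, and MYC is at 0.089 without PIG-LONA replicate 2 and at -0.017 without PIG-LONA replicate 1.

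In CPM, 9 of the 10 genes were higher in PIG-LONA replicate 1 than in PIG-LONA replicate 2, POLR1B being the exception, against 49.6% of all tested genes. The count depended on the scale, with 8 of 10 as a share of the library total (44.5% of tested genes) and 3 of 10 in TPM (30.4% of tested genes). In PIG-EMPTY, replicate 1 was higher than replicate 2 for 4 of the 10 genes in CPM. The share over all tested genes was not computed for PIG-EMPTY. The share of mitochondrially encoded reads was 7.10% in PIG-LONA replicate 1 and 6.32% in PIG-LONA replicate 2, against 6.80% and 6.61% in PIG-EMPTY replicates 1 and 2. Its part in the order of the replicates was not tested.

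None of the 10 genes lies on chromosome 6, whose tested genes had a median log2 fold change of 0.17. On the chromosomes that hold the 10 genes the medians ran from -0.016 for chromosome 14, with MAX, to 0.0029 for chromosome X, with DKC1.

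Several of the nucleolar genes carry snoRNA genes within their borders in the GENCODE annotation. There are 14 such snoRNA genes in 4 of the 10 genes, 5 in NOP56, 4 in NOP58, 3 in NCL and 2 in DKC1. Mature snoRNAs mostly lack a poly(A) tail, and in these poly(A) libraries no snoRNA row of the 14 exceeded 25 counts in any library. The 8 snoRNA genes that share bases with an annotated exon of their host had 0 counts in all 4 libraries. How reads over these shared bases were counted is not given, so the 0 counts do not show that such reads were absent. Reads of the hosts over these bases are uncertain for the same reason. Of the other 6 snoRNA genes, SNORA75 and SNORD20 in NCL and SNORD11 in NOP58 had enough reads to be tested. None of these 3 was called by edgeR (adjusted p = 0.337 for SNORA75, 0.577 for SNORD20 and 0.93 for SNORD11). SNORA75 had 10 and 17 counts in PIG-LONA, against 20 and 20 counts in PIG-EMPTY. SNORD20 had 19 and 25 counts in PIG-LONA, against 9 and 20 counts in PIG-EMPTY. SNORD11 had 10 and 14 counts in PIG-LONA, against 12 and 8 counts in PIG-EMPTY. MAX shares 184 exon bases with the antisense gene AL139022.1, which had 10 and 5 counts in PIG-LONA, against 2 and 6 counts in PIG-EMPTY, too few to be tested. MAX also overlaps FNTB on the opposite strand without shared exon bases, and FNTB had a log2 fold change of 0.074 ± 0.11 (edgeR adjusted p = 0.792).

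Promoter sequence is a feature that did not enter the choice of the genes. Windows from 250 bases before to 50 bases after a start site in RefSeq (build GRCh38.p14) were found for 8 of the 10 genes. There were 11 windows in all, since NPM1, MAX and POLR1B have a pair each. These start sites need not be the GENCODE gene borders given above. The windows of these genes held between 13 and 42 CG pairs, against a median of 14 over all 35116 windows. The letters CACGTG, an E-box to which dimers of MYC and MAX are known to bind and which reads the same on both strands, occurred in 1 of the 11 windows, that of FBL. Of all windows, 7.26% held it. The FBL window and the CG-rich window of NPM1 are shown to set a window with these letters beside one without, each read 5′ to 3′ on the strand of its gene, with the E-box in capitals. The FBL match begins 6 bases after the RefSeq start site of its window. A match is a description of the letters and not of binding.
FBL, chr19:39846330-39846629, minus strand: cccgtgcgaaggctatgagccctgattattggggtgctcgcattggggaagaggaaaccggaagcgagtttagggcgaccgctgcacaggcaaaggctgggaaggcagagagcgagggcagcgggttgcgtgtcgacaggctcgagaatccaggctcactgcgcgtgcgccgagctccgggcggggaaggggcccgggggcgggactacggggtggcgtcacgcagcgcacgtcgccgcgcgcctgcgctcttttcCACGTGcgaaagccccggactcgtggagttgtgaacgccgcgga
NPM1, chr5:171387599-171387898, plus strand: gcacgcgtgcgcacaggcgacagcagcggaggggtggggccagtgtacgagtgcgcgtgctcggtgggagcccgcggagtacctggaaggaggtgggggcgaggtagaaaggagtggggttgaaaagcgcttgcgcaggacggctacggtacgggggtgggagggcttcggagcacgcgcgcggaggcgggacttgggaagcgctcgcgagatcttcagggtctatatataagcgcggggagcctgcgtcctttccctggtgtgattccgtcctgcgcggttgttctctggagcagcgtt
FBL, with the E-box, was at a log2 fold change of 0.030 ± 0.039. With 1 gene holding these letters, their relation to the differences between the groups was not tested.

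The wider machinery of ribosome production was read out from lists of textbook members. Of 60 ribosome assembly factors, all tested, edgeR called 0 in either direction, against 6.44% of all tested genes. Their median log2 fold change was 0.018. The abundant helicase gene DDX21 had 534 and 560 CPM in PIG-LONA, against 534 and 539 CPM in PIG-EMPTY. BRIX1, a factor of the large subunit, had 314 and 305 CPM in PIG-LONA, against 298 and 301 CPM in PIG-EMPTY. At an unadjusted p under 0.05 in edgeR there were 8 of the 60 assembly factors, against 18.7% of all tested genes. DESeq2 and limma-voom called 0 of them, against 2.97% and 6.26% of all tested genes. Of 14 partners in the box C/D and box H/ACA snoRNPs, edgeR and DESeq2 likewise called 0. By limma-voom 1 was called lower (7.14% of 14, against 6.26% of all tested genes). In edgeR 2 of the 14 were at an unadjusted p under 0.05, against 18.7% of all tested genes. Their median log2 fold change was 0.0090. NOLC1, a nucleolar chaperone of snoRNPs, was at 0.045 ± 0.034 (edgeR adjusted p = 0.541), and TCOF1, which encodes the treacle protein of ribosomal gene transcription, at 0.054 ± 0.037 (edgeR adjusted p = 0.482). Without PIG-LONA replicate 1 the share called was 13.9% of all tested genes, and 6 assembly factors were called higher and 2 lower (13.3% of 60), as were 2 snoRNP partners lower (14.3% of 14). Leaving out PIG-LONA replicate 2 gave 1 assembly factor higher, against 7.81% of all tested genes, and leaving out PIG-EMPTY replicate 1 also gave 1 higher, against 3.86%.

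The RNA polymerase I list had 20 tested members of 21, of which 2 rose, 0 fell and 18 did not pass (10% called, against 6.44% of all tested genes), with a median log2 fold change of 0.0013. Both that rose lie on chromosome 6, with its median of 0.17, where 240 of 799 tested genes were called. The fit without chromosome 6 genes leaves both out, and 0 of the 17 members left in this list were called, against 4.37% of all tested genes. Those 17 were also uncalled with chromosome 6 genes kept, so this fit says nothing about the 2 calls. Whether their place on chromosome 6 had a part in the calls was not tested. TBP, the TATA-binding protein used by all nuclear RNA polymerases, had 42.1 and 41.7 CPM in PIG-LONA, against 34.7 and 35.4 CPM in PIG-EMPTY (log2 fold change 0.26 ± 0.05, edgeR adjusted p = 0.00456). POLR1C, a subunit shared by RNA polymerases I and III, had 57.1 and 57.4 CPM in PIG-LONA, against 49.0 and 49.9 CPM in PIG-EMPTY (0.21 ± 0.05, edgeR adjusted p = 0.00888). The groups were apart for both genes. TBP was not called when PIG-EMPTY replicate 1 was left out. POLR1C was not called by DESeq2, with no filter on low counts, or when either of the PIG-EMPTY libraries was left out. With PIG-LONA replicate 1 left out, 2 members of this list were called higher and 2 lower (20% of 20, against 13.9% of all tested genes).

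Of the 19 genes of NPM1 partners and nucleolar stress reported here, 18 were tested. By edgeR, DESeq2 and limma-voom 0 of them were called, against 6.44%, 2.97% and 6.26% of all tested genes. In edgeR 4 of the 18 were at an unadjusted p under 0.05, against 18.7% of all tested genes. Their median log2 fold change was -0.026. RPL5, a ribosomal protein of the 5S particle that binds the ligase MDM2, had 1101 and 1035 CPM in PIG-LONA, against 1095 and 1073 CPM in PIG-EMPTY (-0.021 ± 0.035, edgeR adjusted p = 0.822). RPL23, another ribosomal protein known to bind MDM2, had 712 and 666 CPM in PIG-LONA, against 707 and 728 CPM in PIG-EMPTY (-0.059 ± 0.037, edgeR adjusted p = 0.424). The groups overlapped for both. MDM2 itself, named after its value was seen, had 141 and 147 CPM in PIG-LONA, against 155 and 160 CPM in PIG-EMPTY (-0.13 ± 0.04), and did not pass (edgeR adjusted p = 0.0572). With the replicate number as a block it was called, at -0.13 (edgeR adjusted p = 0.0397), the only call of this list in that fit. With PIG-LONA replicate 1 left out, 2 members of this list were called higher and 5 lower, RPL5 (-0.066), RPL23 (-0.11) and MDM2 (-0.10) among these 5. That was 7 of the 19 members then tested, in a fit that called 13.9% of all tested genes. With PIG-LONA replicate 2 left out MDM2 was called lower (-0.16) and RPL5 was at 0.025.

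The MYC and MAX network, made of the other MYC family genes, the MXD repressors and known regulators of MYC, had 17 tested members of the 18 reported here. By edgeR, DESeq2 and limma-voom 0 were called, against 6.44%, 2.97% and 6.26% of all tested genes. In edgeR 2 of the 17 were at an unadjusted p under 0.05, against 18.7% of all tested genes. Their median log2 fold change was 0.0030. MYCBP2, the most abundant, had 314 and 359 CPM in PIG-LONA, against 311 and 320 CPM in PIG-EMPTY. MLX, a dimer partner of some MXD repressors, had 107 and 105 CPM in PIG-LONA, against 115 and 109 CPM in PIG-EMPTY (-0.081 ± 0.042, edgeR adjusted p = 0.321). Its groups did not overlap. MYCBP2 was called without PIG-LONA replicate 1 (0.19, edgeR adjusted p = 6.03e-09) and was at -0.0071 without PIG-LONA replicate 2, so its value rests on 1 library. The number called in this list was 2, both higher, without PIG-LONA replicate 1 (11.8% of 17, against 13.9% of all tested genes).

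Of 32 genes known as MYC targets outside the nucleolus, 31 were tested, 2 rose, 0 fell and 29 did not pass, with a share called of 6.45%, close to the 6.44% of all tested genes, and a median log2 fold change of 0.011. TFRC, the transferrin receptor for iron uptake, had 330 and 343 CPM in PIG-LONA, against 294 and 282 CPM in PIG-EMPTY (0.22 ± 0.04, edgeR adjusted p = 0.000588). TERT, the catalytic subunit of telomerase, had 52.2 and 55.2 CPM in PIG-LONA, against 45.8 and 47.0 CPM in PIG-EMPTY (0.21 ± 0.05, edgeR adjusted p = 0.0124). The groups did not overlap for either gene. By DESeq2 only TFRC was called (3.23% of 31, against 2.97% of all tested genes). With no filter on low counts TFRC was again the only call (3.12% of 32, against 1.13%). TERT was also not called when either of the PIG-EMPTY libraries was left out, nor was TFRC without PIG-EMPTY replicate 2. Over the 11 alternatives TFRC stayed between 0.19 and 0.26 and TERT between 0.17 and 0.25. Leaving out PIG-LONA replicate 1 gave 4 higher and 2 lower (18.8% of the 32 then tested, against 13.9% of all tested genes), and leaving out PIG-LONA replicate 2 gave 6 higher (19.4% of 31, against 7.81%).

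**Figure D4:**
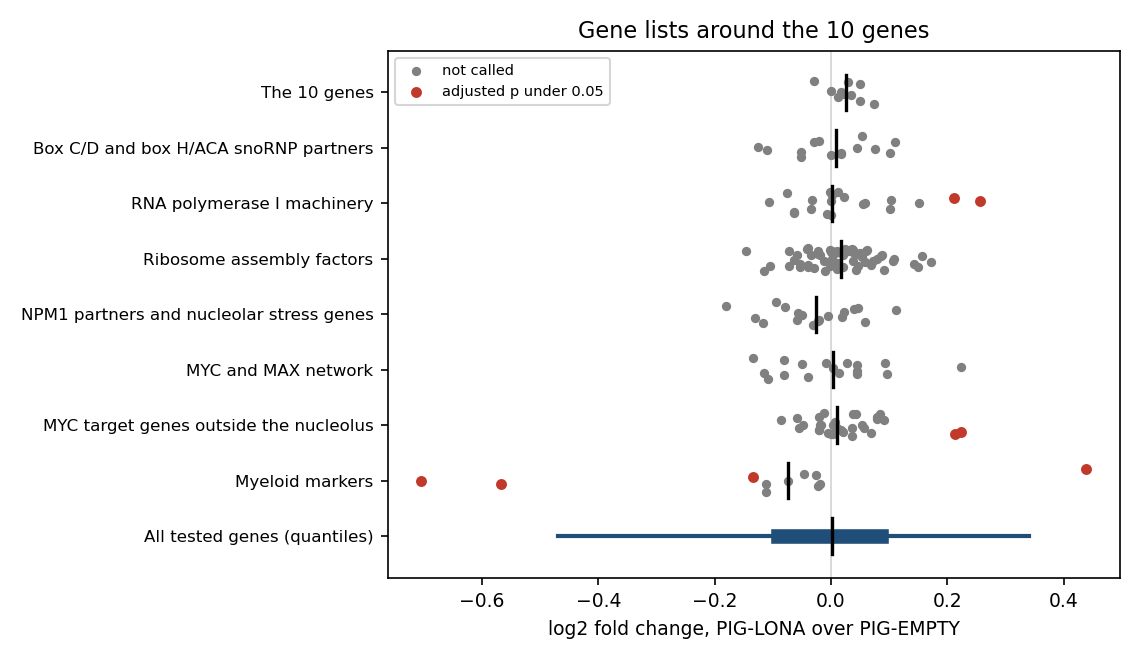
Log2 fold change of PIG-LONA over PIG-EMPTY for the tested genes of each list (points, red where adjusted p is under 0.05; black bar for the median), with the 5% to 95% range (thin) and the 25% to 75% range (thick) of all tested genes in blue. The 10 genes lie between -0.030 and 0.074, inside the 25% to 75% range of all tested genes, which runs from -0.091 to 0.087.

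The genes whose CPM pattern over the 4 libraries was nearest to that of NPM1 were CCDC117 (distance 0.0037), PKM (0.0042) and YTHDF2 (0.0051). The measure was the Euclidean distance of centred log2 CPM among 4698 genes with a mean of at least 50 CPM. NOP56 ranked 5 by the same measure, at a distance of 0.0060. For MYC the nearest were GIT1 (0.011), ATAD3B (0.011) and SUMO2 (0.012), and FBL, the nearest of the other 9 genes, was at 0.024. With 4 libraries these distances only describe small differences.

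As a check of the cell type, the myeloid genes CEBPA, SPI1 and CD33 were expressed in all libraries. CEBPA had 449 and 409 CPM in PIG-LONA, against 446 and 422 CPM in PIG-EMPTY. SPI1 had 210 and 202 CPM in PIG-LONA, against 224 and 228 CPM in PIG-EMPTY. CD33 had 98.4 and 99.9 CPM in PIG-LONA, against 100 and 104 CPM in PIG-EMPTY. MPO, of the same list, was low, at 2.10 and 2.78 CPM in PIG-LONA, against 2.79 and 2.59 CPM in PIG-EMPTY. Of 12 markers of other cell types, 5 had 0 counts in all 4 libraries (CD3D, CD3E, MS4A1, HBB and EPCAM). The summed level of that list was 274 and 290 CPM in PIG-LONA, against 275 and 275 CPM in PIG-EMPTY. Most of it was NCAM1, with 246 and 262 CPM in PIG-LONA, against 241 and 241 CPM in PIG-EMPTY. In each library NCAM1 was above SPI1 and CD33. Only 4 of the 12 had enough reads to be tested, and 1 of these was called (25%, against 6.44% of all tested genes). It was PECAM1, a gene also known in myeloid cells (-0.31 ± 0.06, edgeR adjusted p = 0.0019). The myeloid list had 3 falls and 1 rise among 11 members (36.4% called, against 6.44% of all tested genes). ANPEP (CD13) had 27.7 and 27.7 CPM in PIG-LONA, against 42.1 and 40.1 CPM in PIG-EMPTY (-0.57 ± 0.06, edgeR adjusted p = 2.16e-06). The receptor gene FLT3 had 49.4 and 51.5 CPM in PIG-LONA, against 37.0 and 37.5 CPM in PIG-EMPTY (0.44 ± 0.05, edgeR adjusted p = 2.04e-05). LYZ (lysozyme) had 26.0 and 27.1 CPM in PIG-LONA, against 52.9 and 34.2 CPM in PIG-EMPTY, and its size rested on 1 library, at -0.36 without PIG-EMPTY replicate 1 and -0.99 without PIG-EMPTY replicate 2. LYZ was at -0.70 ± 0.12 with all 4 libraries and SPI1 at -0.13 ± 0.04, and neither was called by DESeq2 or with no filter on low counts. SPI1 was also not called when either of the PIG-EMPTY libraries or the chromosome 6 genes were left out. The number that fell was 5 with PIG-LONA replicate 1 left out, the fit that called 13.9% of all tested genes.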

How the data were processed

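The values are raw counts of reads for each Ensembl gene ID, deposited by the authors with 1 column for each library, per the file headers. FastQC 0.11.4, STAR 2.5, HTSeq and the build hg38 are named, per the submitters' processing notes. Which annotation release and strand setting were used is not given in the sources used here, so reads of overlapping or antisense genes and of close copies are uncertain. Per the labels' protocols, libraries were made with a directional kit, and each vector was introduced in independent transductions of 1 cell line.

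Of 67062 rows, 60402 could be given a symbol, and the remaining rows held 0.0723% of counts. Positions and exon lengths came from GENCODE on GRCh38, the assembly of hg38. Rows without a length (0.0548% of counts) were left out of TPM.

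The fit ran in R 4.3.3 with edgeR 4.0.16 on genes kept by filterByExpr, minimum count 10 and minimum total 15 (TMM, glmQLFit with legacy form off, glmQLFTest, two-sided, Benjamini-Hochberg over all tested genes, threshold 0.05). The SE is the size of the log2 fold change over the square root of F, and the 95% interval uses the degrees of freedom of the test. The biological coefficient of variation was 2.95%. The chi-square per gene was 4.32 between PIG-LONA replicates and 1.77 between PIG-EMPTY replicates, more than counting noise gives, and each library was counted as 1 replicate. The 10 genes had at least 1997 counts in every library. For single genes, counting error was not separated from the rest of the spread between libraries. In NPM3, among the lowest of the 10, the SD was 4.00 CPM in PIG-LONA and 0.060 CPM in PIG-EMPTY.

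Alternatives were DESeq2 1.42.0 size factors, library totals, the DESeq2 Wald test, limma-voom (limma 3.58.1), no filter beyond 1 count, each library left out, the replicate number as a block, no chromosome 6 genes and, added after seeing the data, NPM1 with its pseudogene rows. The members and lists were chosen with earlier results of these data known, and a list is described by counts and medians with no set test. Some genes of the lists are not reported here and are left out of their counts and medians. All 10 genes are named, and each other list adds up to 4 called genes with the smallest p, or its 2 most abundant where none was called. The 3 genes nearest to NPM1 and to MYC were taken by distance of log2(CPM + 0.5).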

Additional observations from a re-analysis of the deposited data

How the results depend on the processing

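The 10 genes stayed without a call under 10 of 11 alternatives, the exception being 1 gene (MYC) called without PIG-LONA replicate 2, so the count ran from 0 to 1 with libraries left out. The count over all tested genes, 1025 as reported, was 473 with the DESeq2 Wald test, 334 with no filter beyond 1 count and 660 without chromosome 6 genes, and ran from 466 to 2331 with 1 library left out. Log2 fold changes of the 10 genes stayed between -0.090 and 0.10 under these 11 alternatives. Where a sign reversed, the reversed value was uncalled. MAX was at -0.0057 with library totals and -0.00011 with limma-voom. With 1 library left out at a time, values of both signs came from MAX (-0.040 to 0.046), NPM3 (-0.090 to 0.035), FBL (-0.0089 to 0.072), MYC (-0.017 to 0.089), MYCBP2 (-0.0071 to 0.19), RPL5 (-0.066 to 0.025), DDX21 (-0.0043 to 0.064), PKM (-0.00091 to 0.040), YTHDF2 (-0.0026 to 0.038), GIT1 (-0.0100 to 0.083), ATAD3B (-0.026 to 0.095) and SUMO2 (-0.024 to 0.086). The cause was not tested. With the replicate block 1101 genes and 0 of the 10 were called, and in the NPM1 partner list MDM2 was, with no other call of a list or named gene changed. Deviations of same-numbered libraries correlated at 0.046 across genes, so the numbers are not taken to pair the samples.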
